A study of Bos grunniens with 12 samples.

Results

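Spermatogonia are the germ cells at the base of the seminiferous tubule, and a small share of them are stem cells that renew the line for the life of the animal. Stem cell renewal depends on the ligand GDNF, made by Sertoli and peritubular cells, which acts through the receptor pair GFRA1 and RET, and cells that leave the stem state turn on KIT, the receptor of the ligand KITLG. ZBTB16 and ID4 are transcription regulators of undifferentiated spermatogonia, UCHL1 is a ubiquitin hydrolase abundant in the same cells, NANOS3 is an RNA-binding protein of germ cells, and DMRT1 is a transcription factor of spermatogonia and Sertoli cells that acts in the choice between mitosis and meiosis. The 7 genes were chosen by symbol: every row of the gene expression table named ZBTB16, GFRA1, UCHL1, KIT, DMRT1, ID4 or NANOS3 was taken, with any differential m6A peak annotated to them. They stood on 10 of the 20953 rows, since UCHL1, KIT and NANOS3 each stand on a pair of identifiers. Of these, 8 rows reached a mean of 0.5 FPKM and were tested, among 12437 rows tested in all. FPKM is an expression level per length of transcript that is also scaled by how many fragments of a library were mapped.

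The study sequenced testes of domesticated yak (Bos grunniens) at an age of 1.5 years (18M in the titles) and of 5 years (5Y), 3 animals per age. From each testis an input library of fragmented poly(A) RNA and a library of fragments bound by an antibody against N6-methyladenosine (m6A) were made, 12 libraries in all. Values per gene were used for the 6 input libraries alone. The 18M testes came from castration and the 5Y testes from euthanized animals, so that age and way of collection cannot be told apart. No genetic change or treatment is given for either age. Titles and the description of the animals give these ages, but the developmental stage field names the opposite stage for every sample, so each direction below rests on the titles, and 18M and 5Y mean the libraries so labelled. Whole testis was sequenced, and in such bulk RNA fewer cells of a type and less RNA per cell cannot be told apart.

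The libraries differed in their cell type markers, and 5Y replicate 1 stood apart. Across the tested genes its log2 values correlated at 0.817 to 0.837 with those of the 18M libraries, against 0.912 to 0.947 for the other 5Y libraries. The 6 Sertoli cell markers with a row (SOX9, WT1, GATA4, FSHR, DHH and INHA) summed to 73.7 to 86.6 FPKM in the 18M libraries and to 257, 108 and 135 FPKM in 5Y replicates 1, 2 and 3. The 5 spermatid markers (TNP1, ACRV1, SPACA1, ODF1 and GAPDHS) summed to 1073 to 1149 FPKM at 18M and to 252, 828 and 671 FPKM in the same 5Y libraries. The 7 spermatocyte markers summed to 47.3 to 53.1 FPKM in all 6 libraries. Thus spermatid RNA was higher in the libraries labelled 18M, and Sertoli cell RNA was higher in those labelled 5Y. The description of the animals puts those of 1.5 years before sexual maturity and those of 5 years after it, and the order of the spermatid markers, which are made late in sperm formation, goes against that description. All 6 Sertoli markers had groups that did not overlap, with 5Y higher, against 19.8% of all tested genes. None of the 6 had an adjusted p under 0.05 (limma). Of the 5 spermatid markers, 3 (TNP1, ODF1 and GAPDHS) had no overlap, with 5Y lower, against 13.9% of all tested genes. ACRV1 and SPACA1 overlapped through 5Y replicate 2. The 4 peritubular and smooth muscle markers (ACTA2, MYH11, DES and TAGLN) moved with the Sertoli markers, from sums of 16.3 to 18.1 FPKM at 18M to 39.9, 21.3 and 36.4 FPKM at 5Y. The 4 macrophage markers summed to 10.8 to 16.97 FPKM at 18M and to 23.8 to 24.0 FPKM at 5Y, and the 3 endothelial markers to 5.18 to 7.23 and 5.54 to 9.14 FPKM. The macrophage sum was mostly CD14 and C1QA, and its markers did not move together. The log2 fold change, 5Y minus 18M, was 1.07 for C1QA, 0.55 for CD14, 0.003 for CD68 and -1.16 for CD163. The part of these shifts in the results below was not tested. The ratios within a library set the members against some of these markers but do not measure that part. The defining markers AMH, CLDN11 and CLU (Sertoli), TNP2, PRM1 and PRM2 (spermatid) and DDX4 and DAZL (germ cell) have no row under their symbols in the table used here.

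The 7 genes covered a wide range of levels (plot of FPKM by library). DMRT1 was highest, with a mean over 6 libraries above that of 95.7% of the tested genes, and GFRA1 was lowest, above 0.587% of them. From the top the order of mean FPKM was DMRT1, UCHL1, ID4, KIT, NANOS3, ZBTB16 and GFRA1. DMRT1 stood above UCHL1 in 6 of 6 libraries, with a ratio of means of 2.05. UCHL1 stood above ID4 in 6 of 6 libraries with a ratio of 1.40, but by as little as 1.04 in a single library. ID4 exceeded KIT in 6 of 6 libraries, by 3.50 in ratio of means. KIT and NANOS3 were the neighbours that changed places: KIT was higher in 5 of 6 libraries, and the ratio of means was 1.26. NANOS3 exceeded ZBTB16, and ZBTB16 exceeded GFRA1, in 6 of 6 libraries each. These are ratios of FPKM, which is per length of transcript, on the linear scale. The order was thus the same in every library but 1.

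**Figure D1:**
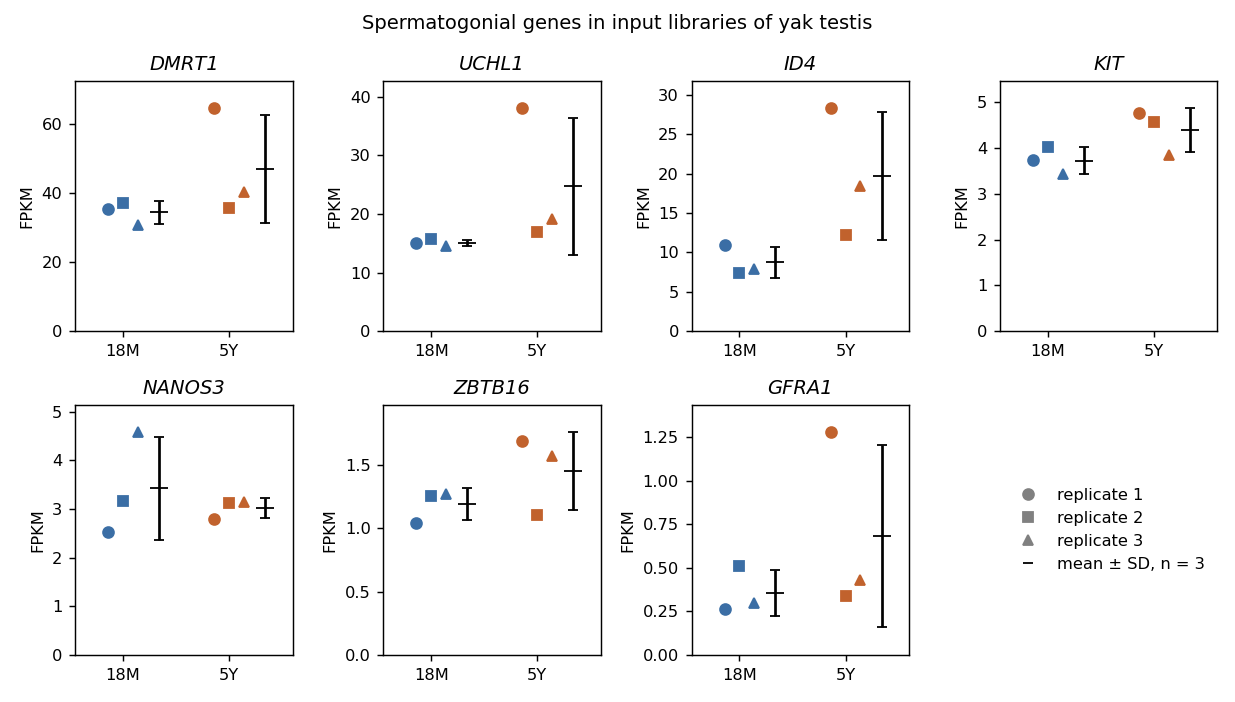
FPKM of the 7 spermatogonial genes in the 3 input libraries per age (linear axes from 0, a scale of its own for each gene; points are libraries, bars are mean ± SD, n = 3). The 5Y replicate 1 point is the highest for every gene but NANOS3, and the ages do not overlap for UCHL1 and ID4.

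No member passed the test between the ages after adjustment. With limma on log2(FPKM + 0.1) and Benjamini-Hochberg adjustment over 12437 genes, 0 of 7 genes had an adjusted p under 0.05, where 0.0322% of all tested genes did. At an unadjusted p under 0.05, 1 of 7 passed (ID4), against 25.1% of tested genes, of which 14.2% were higher and 10.9% lower in 5Y. The log2 fold change, 5Y minus 18M, was positive for 6 of 7 genes, against 53.5% of tested genes, and its median was 0.40 over the members and 0.04 over all tested genes. GFRA1 passed the filter only through 5Y replicate 1, so its direction is not independent of the filter; without it 5 of 6 were positive, with a median of 0.33. The groups did not overlap, with 5Y higher, for 2 of 7 members (UCHL1 and ID4), a share to be read against 19.8% of tested genes. With 5Y lower it was 0 of 7, against 13.9%. In 6 of 7 members the highest of the 6 libraries was 5Y replicate 1, which was so for 33.7% of tested genes, and 5 of 7 had the order replicate 1, 3, 2 within 5Y, which 29.9% of tested genes had. Without GFRA1 these counts were 5 of 6 and 4 of 6. The Sertoli cell markers had this order too. In simulated libraries each gene had its mean within-age spread, the same at both ages, and genes were drawn independently. There the test called 20% of the genes given a log2 change of 1 and 80.5% of those given a change of 2. With the change of 2, 13 of 174 calls were false. In the data the spread could differ by age, as for UCHL1 (SD 0.569 FPKM at 18M and 11.6 FPKM at 5Y), so these shares describe the simulation alone.

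Of the 7 members, ID4 had the largest log2 fold change. ID4, an inhibitor of DNA binding that marks stem cell spermatogonia in the mouse, was measured at 10.9, 7.37 and 7.89 FPKM in 18M replicates 1, 2 and 3. In 5Y replicates 1, 2 and 3 it was measured at 28.4, 12.3 and 18.4 FPKM. The lowest 5Y library lay above the highest 18M library. Means were 8.73 ± 1.92 FPKM at 18M and 19.7 ± 8.11 FPKM at 5Y (SD, n = 3). This gave a log2 fold change of 1.10 (SE 0.31, 95% interval 0.37 to 1.84), a 2.15-fold higher level, with an unadjusted p of 0.00937 in limma and an adjusted p of 0.154. An exact permutation test of the difference, two-sided, gave p = 0.1, which is the smallest that 3 against 3 libraries allow. Without 5Y replicate 1 the log2 fold change was 0.80, and without 5Y replicate 2 it was 1.40 with an adjusted p of 0.0249 (limma), at which 19.3% of all tested genes were called. Without 5Y replicate 1 none of the 7 members had an adjusted p under 0.05 (limma), while 0.0482% of tested genes did.

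ZBTB16, a zinc finger repressor needed for stem cell maintenance, was measured at 1.05, 1.26 and 1.27 FPKM at 18M. At 5Y it was measured at 1.69, 1.10 and 1.57 FPKM. The groups overlapped, since 5Y replicate 2 lay within the 18M range. For ZBTB16 the log2 fold change was 0.25 (SE 0.23, 95% interval -0.29 to 0.80) with an adjusted p of 0.492 (limma).

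NANOS3 was the member with the highest value in an 18M library. Its main identifier (ENSBGRG00000021964) was measured at 2.53, 3.15 and 4.59 FPKM at 18M and at 2.78, 3.12 and 3.15 FPKM at 5Y. The 5Y values all lay within the 18M range. With 5Y set against 18M, the log2 fold change was -0.14 (SE 0.23, 95% interval -0.68 to 0.40, adjusted p 0.711, limma), and 0.09 without 18M replicate 3, so no direction can be given for it. The other identifier under this symbol (ENSBGRG00000021979) was measured at 2.23, 2.93 and 1.88 FPKM at 18M and at 2.42, 2.82 and 2.74 FPKM at 5Y. For that identifier the log2 fold change was 0.19 (SE 0.20, adjusted p 0.546, limma). How reads were shared between these identifiers is not known, so the split is uncertain; with both rows summed, a step chosen after seeing the data, the mean log2 difference was -0.01.

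UCHL1, which removes ubiquitin from proteins and stains spermatogonia in many mammals, was even across the 18M libraries. It was measured at 15.0, 15.6 and 14.5 FPKM at 18M and at 38.1, 16.9 and 19.2 FPKM at 5Y. All 5Y libraries lay above all 18M libraries, and 5Y replicate 1 was 2.11 times the mean of the other 5Y libraries. Means were 15.1 ± 0.569 FPKM at 18M and 24.7 ± 11.6 FPKM at 5Y (SD, n = 3). The log2 fold change was 0.61 (SE 0.30, 95% interval -0.09 to 1.32, adjusted p 0.235, limma). Without 5Y replicate 1 it was 0.26. The other identifier named UCHL1 was listed at 0 in all 5Y libraries and was not tested.

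GFRA1, the GDNF-binding part of the receptor, was the lowest of the 7 genes. It was measured at 0.264, 0.509 and 0.297 FPKM at 18M and at 1.28, 0.338 and 0.429 FPKM at 5Y. The groups overlapped, and 5Y replicate 1 was 3.34 times the mean of the other 5Y libraries. GFRA1 reached the filter of 0.5 FPKM only through that library, with a mean of 0.520 FPKM over all 6. The log2 fold change was 0.62 (SE 0.52, 95% interval -0.61 to 1.85, adjusted p 0.457, limma), and 0.11 without 5Y replicate 1. RET, the signalling part of the receptor, was measured at 0.570, 0.501 and 0.328 FPKM at 18M and at 1.94, 0.451 and 1.05 FPKM at 5Y, with a log2 fold change of 0.97 (SE 0.50, adjusted p 0.258, limma) that was 0.51 without 5Y replicate 1. Like GFRA1, RET was highest in 5Y replicate 1, and its groups overlapped. The 18M mean of RET was 0.466 FPKM, under the filter of 0.5 FPKM, so its direction is not independent of the filter. GDNF was near the lower end of the table, at 0.133, 0.130 and 0.123 FPKM at 18M and at 0, 0 and 0.251 FPKM at 5Y, and was not tested.

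KIT, the receptor tyrosine kinase of differentiating spermatogonia, was measured at 3.74, 4.02 and 3.43 FPKM at 18M. At 5Y it was measured at 4.77, 4.58 and 3.85 FPKM. The groups overlapped, with 5Y replicate 3 below 18M replicate 2. For KIT the log2 fold change was 0.23 (SE 0.15, 95% interval -0.13 to 0.59, adjusted p 0.365, limma), the narrowest interval of the 7 genes. KIT is also made by mast cells and Leydig cells, whose part in its level was not tested. The 3 mast cell markers (CPA3, MS4A2 and HDC) summed to 15.6 to 18.8 FPKM at 18M and to 3.21 to 10.3 FPKM at 5Y. Nearly all of this sum was MS4A2, and the groups of CPA3 and HDC overlapped. Of the Leydig cell list 2 of 6 symbols had a row (CYP11A1 and STAR). They summed to 10.1 to 19.1 FPKM at 18M and to 7.40 to 8.40 FPKM at 5Y. The lower sum at 5Y came from STAR, with a log2 fold change of -0.92 (adjusted p 0.154, limma). CYP11A1 had 0.12, and its groups overlapped. KITLG, the KIT ligand of Sertoli cells, was measured at 0.771, 1.03 and 1.09 FPKM at 18M and at 1.58, 0.858 and 1.04 FPKM at 5Y, with a log2 fold change of 0.22 (adjusted p 0.635, limma) that was -0.01 without 5Y replicate 1, so no direction can be given for it. The other identifier named KIT had a mean of 0.0149 FPKM at 18M and was listed at 0 in all 5Y libraries; it was not tested.

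DMRT1, whose protein is found in Sertoli cells as well as in spermatogonia, was measured at 35.4, 37.1 and 30.9 FPKM at 18M. At 5Y it was measured at 64.8, 35.8 and 40.5 FPKM. Only 5Y replicates 1 and 3 lay above the 18M range, and 5Y replicate 2 lay within it. The log2 fold change of DMRT1 was 0.40 (SE 0.24, 95% interval -0.16 to 0.97, adjusted p 0.310, limma), and 0.15 without 5Y replicate 1.

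**Figure D2:**
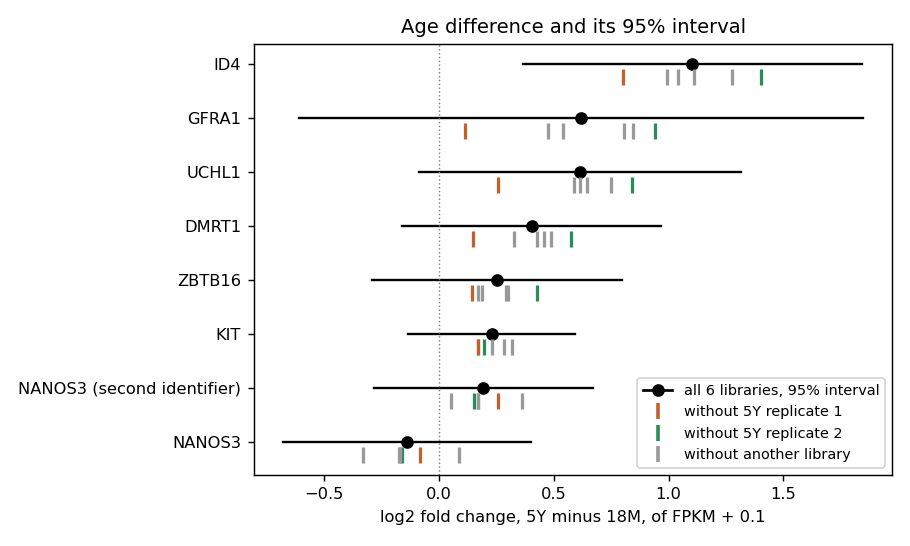
Log2 fold change (5Y minus 18M, of FPKM + 0.1) of the 8 tested rows; dots and lines are the limma estimate from 6 libraries with its 95% interval, and ticks are the estimate with 1 library left out. Only the interval of ID4 lies above 0, and leaving out 5Y replicate 1 gives the lowest value for ID4, GFRA1, UCHL1, DMRT1, ZBTB16 and KIT.

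The members were next set against marker genes of the same library, since the scaling of a library drops out of such a ratio, other than through the pseudocount in low genes such as GFRA1 (plot of ratios within a library). The reference was the mean log2(FPKM + 0.1) of the 6 Sertoli cell markers or of the 7 spermatocyte markers, or MAEL, a germ cell gene. These references were chosen after seeing that the planned one, DDX4, had no row. With the ratio of KIT to GFRA1, 22 ratios were compared by exact two-sided permutation tests, none of which can go below p = 0.1, so none can pass 0.05 before or after adjustment.

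Against the Sertoli cell markers, the sign turned for 5 of 7 members. This reference was itself higher in 5Y, with a mean log2 of 2.61, 2.57 and 2.25 at 18M and 3.81, 2.91 and 3.27 at 5Y. Its rise lowers the difference of every tested gene by the same amount, so the turned signs do not set the members apart. The share of all tested genes whose sign turned was not computed. The difference of mean log2 ratios, 5Y minus 18M, was -0.45 for DMRT1, whose ratios were 2.54, 2.65 and 2.70 at 18M and 2.21, 2.26 and 2.07 at 5Y. For KIT it was -0.62, for ZBTB16 -0.60 and for NANOS3 -0.99. In these 4 of 7 genes every 5Y library lay below every 18M library (p = 0.1, exact permutation), which was so for 63.9% of tested genes. The reverse was seen in 0 of 7 members and in 1.29% of tested genes. For UCHL1 the difference was -0.24 and for GFRA1 -0.23 (-0.45 with a pseudocount of 1), and the groups overlapped. ID4 was the exception with 0.25: its ratios were 0.85, 0.33 and 0.75 at 18M and 1.02, 0.72 and 0.94 at 5Y, which overlapped (p = 0.3, exact permutation).

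The mean of the spermatocyte markers was near even over the libraries, but not every marker was. In 5Y replicate 1 SYCP3 was at 10.2 FPKM, against 5.61 to 7.70 FPKM in the other libraries. SYCP2 was at 5.77 FPKM there, against 8.21 to 9.40 FPKM. Against the mean of these markers ID4 alone had groups that did not overlap. With 5Y higher this was 1 of 7 members against 12.9% of tested genes, and with 5Y lower 0 of 7 against 20.8%. The ratios of ID4 were 0.83, 0.33 and 0.35 at 18M and 2.25, 0.91 and 1.48 at 5Y, a difference of 1.04 (p = 0.1, exact permutation). For the other 6 members the difference lay between -0.20 (NANOS3) and 0.56 (GFRA1), and the groups overlapped. Without 5Y replicate 1 the difference was 0.69 for ID4, 0.01 for GFRA1, 0.15 for UCHL1 and 0.04 for DMRT1. MAEL was measured at 57.0 to 66.7 FPKM at 18M and at 33.5, 59.3 and 44.4 FPKM at 5Y. Against MAEL every member had a positive difference, from 0.31 for NANOS3 to 1.55 for ID4. MAEL itself had a log2 fold change of -0.45, which raises the difference of every tested gene by the same amount. The 25th percentile of the log2 fold change over all tested genes was -0.31, so most of them had a positive difference too. MAEL was lowest in 5Y replicate 1, and without that library the difference was 0.16 for NANOS3, 1.05 for ID4, 0.50 for UCHL1 in place of 1.06 and 0.36 for GFRA1 in place of 1.07. There ID4, UCHL1 and KIT had groups that did not overlap, 3 of 7 against 28.5% of tested genes, and 0 of 7 lay lower in 5Y against 5.48%. The ratio of KIT to GFRA1, the differentiating over the stem cell receptor, was 3.40, 2.76 and 3.15 on the log2 scale at 18M and 1.82, 3.42 and 2.90 at 5Y. The groups overlapped, and the difference of -0.39 (p = 0.7, exact permutation) was 0.06 without 5Y replicate 1 and -0.08 with a pseudocount of 1.

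**Figure D3:**
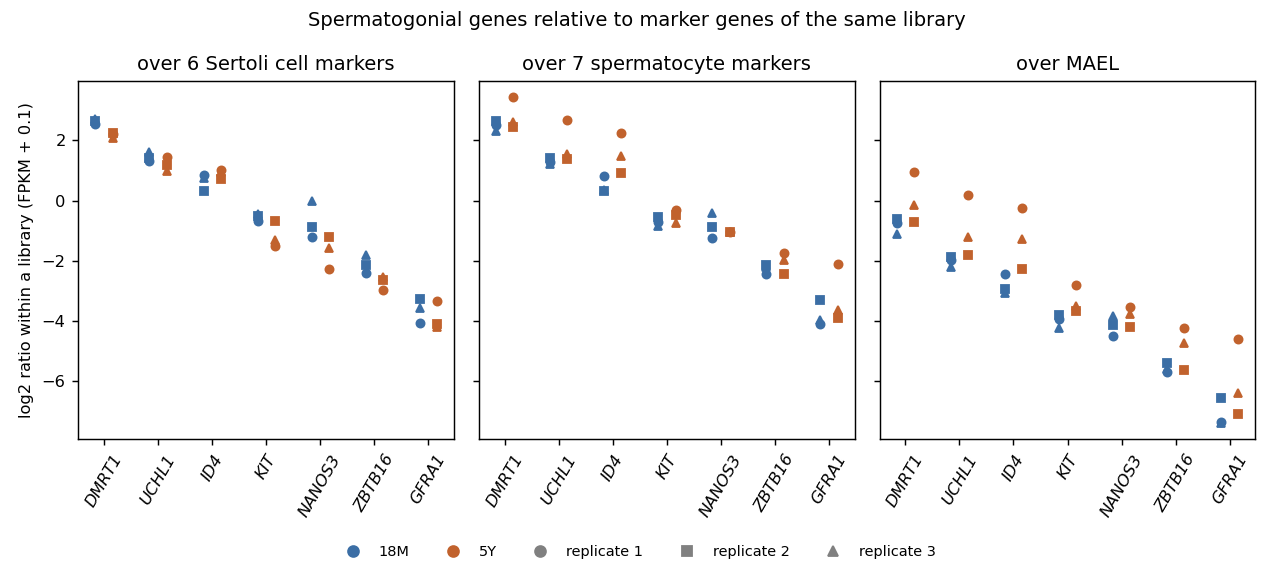
Log2 ratio of each spermatogonial gene to 3 references of the same library: the mean of 6 Sertoli cell markers, the mean of 7 spermatocyte markers, and MAEL (points are libraries, coloured by age and shaped by replicate). Over Sertoli markers the 5Y points of DMRT1, KIT, NANOS3 and ZBTB16 lie below the 18M points, while over spermatocyte markers only ID4 has no overlap.

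Library by library, the genes fell into different profiles (plot of profiles by library). Likeness was measured as the root mean square difference between gene-centred log2(FPKM + 0.1) values over the 6 libraries, as a description. The nearest pair was UCHL1 and DMRT1, at 0.157, and the farthest was ID4 and NANOS3, at 0.829. For ID4 the nearest of all tested genes were MAF (0.0531), NCK2 (0.0760) and GNB1L (0.0783). For UCHL1 they were AHCY (0.0475), IDH2 (0.0611) and TGFB1I1 (0.0661), and for DMRT1 they were ZNF696 (0.0303), YRDC (0.0402) and MED15 (0.0427). KIT was nearest to PLD6 (0.0261), TIGAR (0.0356) and PARS2 (0.0412). ZBTB16 was nearest to USP21 (0.0389), BRS3 (0.0439) and NUCB1 (0.0481), and NANOS3 to ZNF582 (0.0608), ZNF684 (0.0686) and TM7SF2 (0.0858). The values for GFRA1 were larger, with TMLHE at 0.137, ATXN7L2 at 0.153 and BPHL at 0.156.

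**Figure D4:**
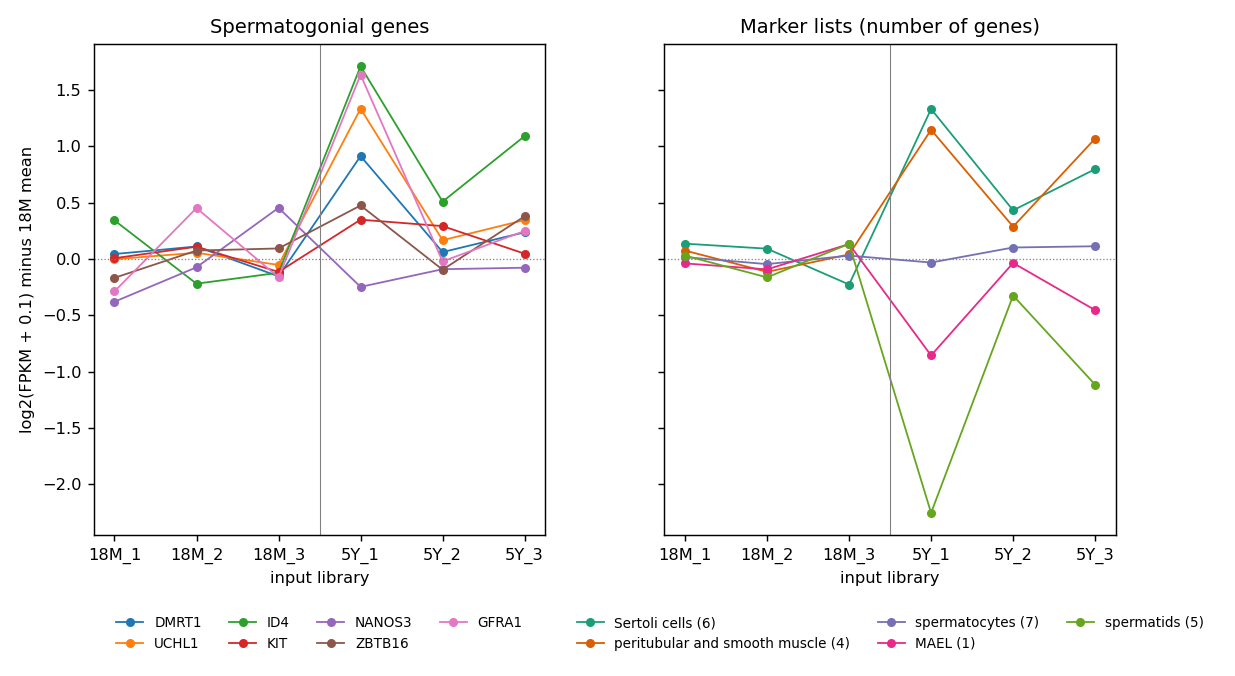
Log2(FPKM + 0.1) of the 7 spermatogonial genes (left) and the mean of marker lists (right, number of tested genes in parentheses) in each input library, each minus its 18M mean; the vertical line parts the ages. ID4, GFRA1, UCHL1 and DMRT1 peak in 5Y replicate 1 as the Sertoli cell markers do, where the spermatid markers are lowest, and the spermatocyte markers stay near 0.

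Other genes of the undifferentiated state gave a mixed picture. Of a list of 22 symbols 18 had a row and 13 were tested; NANOS2, SALL4, LIN28A and UTF1 had none under their symbols. No gene of the list passed at an adjusted p under 0.05 (limma). At an unadjusted p under 0.05 3 of 13 were higher and 0 lower in 5Y, against 14.2% and 10.9% of all tested genes. The median log2 fold change was 0.44. RET (means of 0.466 FPKM at 18M and 1.14 FPKM at 5Y) and THY1 (0.485 and 0.828 FPKM) passed the filter of 0.5 FPKM only through 5Y. Their directions are thus not independent of the filter, and the counts and the median include both. FOXO1, a transcription factor of stem cell maintenance, was measured at 5.18, 4.34 and 3.97 FPKM at 18M and at 10.8, 6.83 and 8.90 FPKM at 5Y, with a log2 fold change of 0.94 (SE 0.20, adjusted p 0.154, limma). TAF4B, a germ cell subunit of the general transcription factor TFIID, was measured at 4.99, 5.33 and 4.59 FPKM at 18M and at 9.85, 6.70 and 7.44 FPKM at 5Y, with 0.66 (SE 0.18, adjusted p 0.154, limma). For both genes the groups did not overlap. The third, LHX1, was named after its values were seen and had a log2 fold change of 0.95 (adjusted p 0.182, limma). With 5Y higher, the groups did not overlap for 3 of 13 genes (FOXO1, TAF4B and ELAVL2), against 19.8% of all tested genes. With 5Y lower it was 1 of 13 (FGFR3), against 13.9%. Of the most abundant genes of the list, EPCAM, an adhesion molecule of spermatogonia, had a log2 fold change of -0.20 (adjusted p 0.495, limma), or 0.01 after quantile normalization, and the receptor FGFR3 had -0.23 (adjusted p 0.334, limma). Without 5Y replicate 2, when 19.3% of all tested genes were called, 6 of the 13 had an adjusted p under 0.05 (limma): RET, LHX1, FOXO1, ADGRA3 and TAF4B were higher and BCL6B was lower in 5Y.

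Of 10 genes of spermatogonial differentiation and entry into meiosis, 5 had a row and 4 were tested. STRA8, SOHLH1, SOHLH2, CCND2 and MEIOSIN had none under their symbols. The median log2 fold change was -0.22, and 0 genes had an adjusted p under 0.05 (limma). SOX3, a transcription factor of early spermatogonia, was the 1 of 4 genes with an unadjusted p under 0.05. It was measured at 12.5, 9.93 and 12.2 FPKM at 18M and at 3.30, 10.6 and 4.27 FPKM at 5Y, with a log2 fold change of -1.10 (SE 0.40, adjusted p 0.168, limma). The groups overlapped through 5Y replicate 2, and the symbol stands on 5 identifiers, so its reads may be split. DMRTB1, a relative of DMRT1 at the entry into meiosis, had 0.15 and the DNA methyltransferase DNMT3B had -0.26, with adjusted p of 0.654 and 0.375 (limma). Without 5Y replicate 2, SOX3 alone of the 4 was called, with an adjusted p of 0.0159 (limma).

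Of 6 niche ligands 3 were tested, and none had an unadjusted p under 0.05. CXCL12, a chemokine that holds stem cells in the niche, had a log2 fold change of 0.61 (adjusted p 0.230, limma) and WNT5A had 0.48 (adjusted p 0.422, limma). Their median was 0.48, and 0.04 without 5Y replicate 1.

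Of 23 relatives of the members by gene family, 22 had a row and 17 were tested, with a median log2 fold change of 0.15. None had an adjusted p under 0.05 (limma), and at an unadjusted p under 0.05 2 of 17 were higher and 0 lower in 5Y, against 14.2% and 10.9% of all tested genes. NANOS1, the relative of NANOS3, was measured at 0.758, 1.79 and 0.686 FPKM at 18M and at 3.57, 2.87 and 2.22 FPKM at 5Y, with a log2 fold change of 1.43 (SE 0.37, adjusted p 0.154, limma). ZBTB20, a zinc finger relative of ZBTB16, was measured at 2.97, 3.23 and 2.72 FPKM at 18M and at 7.31, 4.34 and 5.27 FPKM at 5Y, with 0.87 (SE 0.21, adjusted p 0.154, limma). In both, every 5Y library lay above every 18M library, which held for 2 of 17 relatives and for 19.8% of all tested genes. The reverse held for 3 of 17 (DMRTC2, BAP1 and ZBTB32) and for 13.9% of all tested genes. Among the abundant relatives, DMRTC2 had a log2 fold change of -0.25 and BAP1, a ubiquitin hydrolase like UCHL1, had -0.32, with adjusted p of 0.367 and 0.339 (limma).

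**Figure D5:**
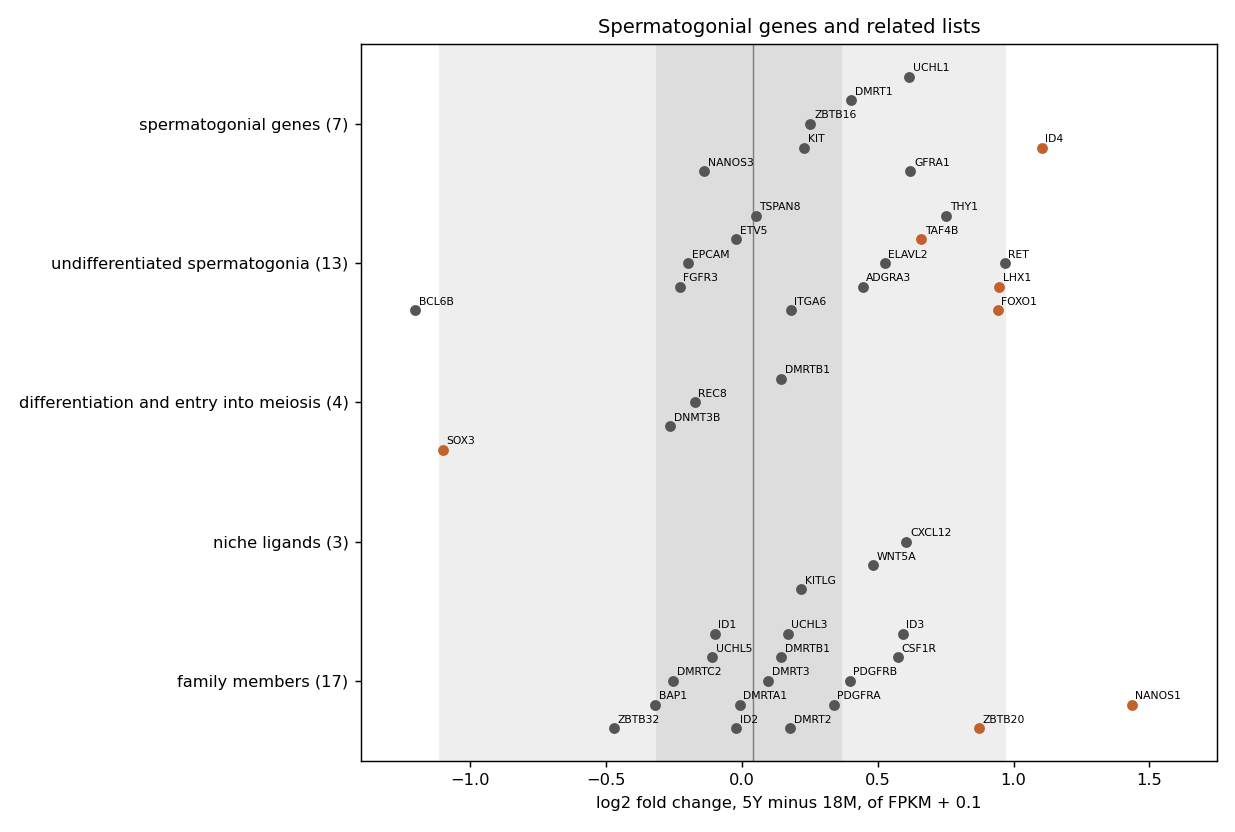
Log2 fold change (5Y minus 18M, of FPKM + 0.1) of the spermatogonial genes and of 4 related lists (number of tested genes in parentheses; orange marks an unadjusted p under 0.05). The line is the median of all tested genes and the shaded bands run from the 25th to the 75th and from the 5th to the 95th percentile of them; ID4 and NANOS1 lie to the right of the bands, and BCL6B lies to the left.

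m6A is a methyl mark on adenosine in mRNA, and regions enriched in the antibody library over its input are called peaks. The table of peaks that differed between the ages held 1438 peaks on 1207 genes. Of the 7 members, 2 had a peak in it (ZBTB16 and KIT), where 9.29% of tested genes had at least 1. The table gives positions and annotation but neither a fold change, a p-value nor a value per animal, so no direction or error is given here for these peaks. Positions are in the build LU_Bosgru_v3.0.

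The ZBTB16 peak lay at chr13:63562838-63563484, with a width of 647 bp. It was annotated to exon 1 of 6, and the gene runs from 63306238 to 63563613 on the minus strand, over 257376 bp. The peak thus lay 129 to 775 bp from the annotated start of the gene, and 15.4% of the differential peaks were annotated to an exon 1. The KIT peak lay at chr6:52213458-52213607, with a width of 150 bp. It was annotated to exon 6 of 22 of a gene that runs from 52171265 to 52275994 on the minus strand, over 104730 bp. The KIT peak thus lay inside the gene, 62387 to 62536 bp from its start and 59.6% of the way along it. Against a median width of 398 bp over all differential peaks, the KIT peak was narrow, since 12.2% were 150 bp or less, and the ZBTB16 peak was wider, since 37.7% were 647 bp or more. In the input libraries neither ZBTB16 nor KIT passed the test between the ages. ID4 and UCHL1, the members whose FPKM groups did not overlap, had no peak in this table. In the related lists TAF4B had a peak of 199 bp in exon 1 of 15 (chr21:26342520-26342718), ADGRA3 had one of 544 bp in exon 19 of 19 (chr6:83062555-83063098), and the less abundant of the identifiers named DMRTC2 had one of 149 bp in its 5' UTR.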

How the data were processed

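Input and IP libraries of 3 testes per age were grouped by title. FPKM values of each input library were deposited by the authors for each gene. According to the methods and the submitters' processing notes, reads were trimmed with Trimmomatic, cleared of rRNA with SortMeRNA, aligned with HISAT2 2.0.4 to LU_Bosgru_v3.0 and kept where unique; the program that computed FPKM is not given in the sources used here. Unique alignment can lower the values of genes with near-identical copies. FPKM summed to 116187 to 139921 per library, with 4563 to 4660 genes at 0. Fragment counts are unknown, and a 0 is given without a limit. Steps between values under 0.1 FPKM were 0.913 to 1.01 times those of 18M replicate 1 (ratios between 0.85 and 1.18 read). Peaks and their widths in bp are as deposited by the authors, who called and compared them with MeTDiff (p at most 0.05, fold at least 1.5) and annotated them with ChIPseeker; how replicates entered is not stated.

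Genes with a mean of at least 0.5 FPKM over the 6 input libraries were compared with limma 3.58.1 (R 4.3.3; lmFit, eBayes with trend, two-sided) on log2(FPKM + 0.1), with Benjamini-Hochberg adjustment over all 12437 genes. Fold changes are on this scale, which understates the change of low genes. Replicates are separate animals. Ratios within a library were compared with exact permutation tests over every split of the libraries, written in Python 3.11.15 with numpy 2.4.6. The programs pandas 2.3.3 and matplotlib 3.10.9 served the rest. The fit was tested on simulated data of 12437 genes; with no gene changed, 0 were called.

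The members and lists were chosen with earlier results of these data known. Besides the members, RET, GDNF and KITLG, each list's 2 genes with the smallest p and 2 with the highest FPKM were named, with any adjusted p under 0.05, and the 3 nearest profiles per member. For a symbol on several identifiers, that with the highest mean FPKM was taken. Besides SOX3 this applied to other named genes, among them LHX1, BCL6B, FGFR3, ZBTB20, BAP1, DMRTC2, SYCP2 and MS4A2, whose reads may also be split. Other pseudocounts, filters, scalings and forms of eBayes, a replicate block and each library left out were tried. The IP libraries by gene, the peak lists of each age (7 peaks each as given) and sequences were not used here. The result of 1 marker list is not reported here.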

Additional observations from a re-analysis of the deposited data

How the results depend on the processing

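Every log2 fold change of the members kept its sign and its side of the threshold under the other pseudocounts (1 and 0.01), filters, scalings and forms of eBayes, and with the replicate block, except that GFRA1 falls under a filter of 1 FPKM. Scaling the libraries to a common sum moved the median of all tested genes from 0.04 to 0.17, and the share of higher values among genes with an unadjusted p under 0.05 from 56.6% to 69.6%. The same-numbered libraries shared only a number: their deviations from the group means correlated at -0.0222, -0.0909 and 0.00668. With the replicate number as a block, ID4 kept 1.10 with an adjusted p of 0.204 (limma), no member was called, and 1 gene of all tested was called against 4 without the block. With 1 library left out, ID4 ran from 0.80 to 1.40, GFRA1 from 0.11 to 0.94, UCHL1 from 0.26 to 0.84, DMRT1 from 0.15 to 0.57, ZBTB16 from 0.14 to 0.43, KIT from 0.17 to 0.32, NANOS3 from -0.33 to 0.09 and its other identifier from 0.05 to 0.36. KIT over GFRA1 ran from -0.74 to 0.06, KITLG from -0.01 to 0.40 and NANOS3 over the spermatocyte markers from -0.40 to 0.01. Among the members, their ratios and the other genes named, the signs that turned were those of NANOS3 without 18M replicate 3 (0.0879), NANOS3 over the spermatocyte markers without that library (0.0122), KIT over GFRA1 without 5Y replicate 1 (0.0557), KITLG without that library (-0.00870) and EPCAM after quantile normalization (0.0119); the cause was not tested. Without 5Y replicate 2 ID4 was called at 1.40, and 1 member, 6 genes of the undifferentiated list, 1 of the differentiation list and 1 relative had an adjusted p under 0.05, against 0 each with all 6 libraries and with any other library left out. At an unadjusted p the counts were 1, 3, 1 and 2. Over all genes tested, calls at an adjusted p under 0.05 numbered 2403 without 5Y replicate 2, 6 without 5Y replicate 1, 0 without 18M replicate 3 (1662 at an unadjusted p under 0.05) and 2 without each of the other 3 in turn. They numbered 9 with no trend, 8 with no filter, 2 with a filter of 1 FPKM and 2 with a pseudocount of 0.01. Counting peaks of at most 1000 bp alone kept both member peaks. Not run were ratios to DDX4, which has no row under its symbol, adjustment over the ratios, and peaks counted by overlap with gene intervals, which the files give only for genes with a peak. Depth per gene is unknown, so no counting error can be given for the low values of GFRA1, RET and GDNF.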
